A study of Arabidopsis thaliana with 20 samples.

Results

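The comparison described here is the response of Arabidopsis seedlings to warm temperature in constant light (LL), taken from the 4 constant light libraries among the 20 libraries of the series. Heated seedlings (LL heat) were moved to 30 °C for 1 h, and control seedlings (LL control) stayed at 23 °C. Each treatment was given at ZT 0.5 (subjective AM) and at ZT 12.5 (subjective PM), ZT being zeitgeber time in hours from lights on, or from subjective dawn in LL. The LL plants were raised in light:dark cycles and then moved to constant light, so that subjective AM and PM are set by the plants' own clock and every LL library was made from plants in light. Each of the 4 LL conditions has 1 library, so the heated and control sides hold 2 libraries each, 1 per subjective time. The other 16 libraries are 4 replicates each of heat and control, AM and PM, in light:dark cycles (LD), where PM plants were treated after lights off. All plants were wild type Col-0 seedlings about 2 weeks old, and RNA came from aerial tissue, which pools many cell types. Because LD PM plants were in the dark and LL PM plants in the light, light and light regime cannot be told apart in any comparison of LL PM with LD PM.

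The LL libraries held 8594948 to 19957156 counts in genes and the LD libraries 14637914 to 38812441. The smallest was the LL heat PM library, which also stood apart from the other 3 LL libraries. Its log2 levels correlated with theirs at r = 0.914 to 0.933 across genes, while those 3 correlated among themselves at 0.948 to 0.967. With the 4 LD heat PM libraries, LL heat PM correlated at 0.940 to 0.949. Leaf markers (RBCS1A, LHCB1.1, LHCB2.1, RCA, CA1 and GLK1) summed to 39498 CPM, counts scaled to a common library total, in LL heat AM against 44868 in LL control AM and to 21527 in LL heat PM against 23277 in LL control PM. None of the 6 leaf markers was at 0. Of the root markers nearly all signal came from PYK10, a beta-glucosidase of roots and seedling shoots, whose list summed to 2089 CPM in LL heat AM against 944 in LL control AM and to 658 in LL heat PM against 1946 in LL control PM. The 4 flower markers summed to 1.07 to 3.15 CPM, and 1 of them was at 0 in all 4 LL libraries. Genes of the rapid stress, wound and touch list summed to 509 CPM in LL heat AM against 385 in LL control AM and to 3882 in LL heat PM against 512 in LL control PM, while the 4 LD heat PM libraries held 696 to 1103 CPM and the 4 LD control PM libraries 240 to 776. The part of this list in the LL PM differences given here was not tested. Fewer cells of a type and less RNA per cell cannot be told apart in such samples.

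Plants sense warmth within minutes. Heat shock factors (HSFs) of class A then bind heat shock elements in promoters and switch on genes for chaperones: small heat shock proteins hold unfolding proteins, HSP70 and HSP90 refold and mature them, and HSP101 pulls them out of aggregates. A separate branch, the unfolded protein response, restores folding in the endoplasmic reticulum (ER). The circadian clock, a loop of morning genes (CCA1, LHY) and evening genes (TOC1, LUX, ELF3, ELF4), keeps running in constant light and gates many stress responses to a time of day.

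With both subjective times taken as a block, heat and control were first compared within the 4 LL libraries. A gene was called when its edgeR quasi-likelihood p-value, adjusted by Benjamini-Hochberg over all genes tested, was under 0.05 and its log2 fold change was over 0.5 in size. No gene was called (0 of 20122, or 0%), and the lowest adjusted p was 0.139. At an unadjusted p under 0.05 there were 1657 genes (8.23%), and DESeq2 with the same terms called 175, of which 150 were higher and 25 lower in heat. This fit has 1 residual degree of freedom, so a gene that responded unequally at the 2 times gained spread. When all 20 libraries were fitted together, so that the spread came mostly from the LD replicates, 286 genes rose (1.33% of 21474) and 183 fell (0.852%). This 20-library fit assumes that LL libraries vary as LD libraries do. In it, with the LD replicate number added as a block, 858 genes rose (4.00%) and 622 fell (2.90%), including all 469 genes called without the block. Leaving out LD replicate 1, 2, 3 or 4 left 54, 219, 262 or 36 calls without the block. In the paragraphs that follow, "rose" and "fell" refer to calls in the 20-library fit without the block unless another fit is named.

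Since each condition has 1 library, the response at a single time was described by fold. Among 13375 genes with at least 10 CPM in at least 1 LL library, 520 were at least 2-fold higher in heat in AM (3.89%) and 170 at least 2-fold lower (1.27%), while in PM 1596 were higher (11.9%) and 1231 lower (9.20%). Genes at least 2-fold higher at both times numbered 197 (1.47%), and 72 (0.538%) were at least 2-fold lower at both. A gene was placed in a class of response at 1 time when it differed at least 2-fold at that time and by under 0.5 on the log2 scale at the other. In this way 138 genes were higher in AM only (1.03%), 42 lower in AM only (0.314%), 1051 higher in PM only (7.86%) and 712 lower in PM only (5.32%). Another 70 were higher in AM and lower in PM (0.523%), and 11 were lower in AM and higher in PM (0.0822%). The limits divide near neighbours: PUX5 (1.32 in AM, 1.0007 in PM) counted as higher at both and AT5G45660 (0.9998 and 1.55) did not, and AT3G06145 (−1.01 and −2.17) counted as lower at both and UGT73B3 (−1.07 and −0.996) did not. The median log2 difference of all 13375 genes was −0.03 in AM and 0.13 in PM. With upper-quartile scaling the PM median was −0.13 and the PM split became 1115 higher and 1839 lower, so the balance of directions in PM depends on the scaling. Across genes, LL AM and LL PM differences correlated at r = 0.298, LL AM with LD AM at 0.534 and with LD PM at 0.530, and LL PM with LD PM at 0.526 and with LD AM at 0.236. The Spearman values in the same order were 0.329, 0.295, 0.397, 0.542 and 0.147. Genes are not independent replicates, and these values are descriptions.

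**Figure D1:**
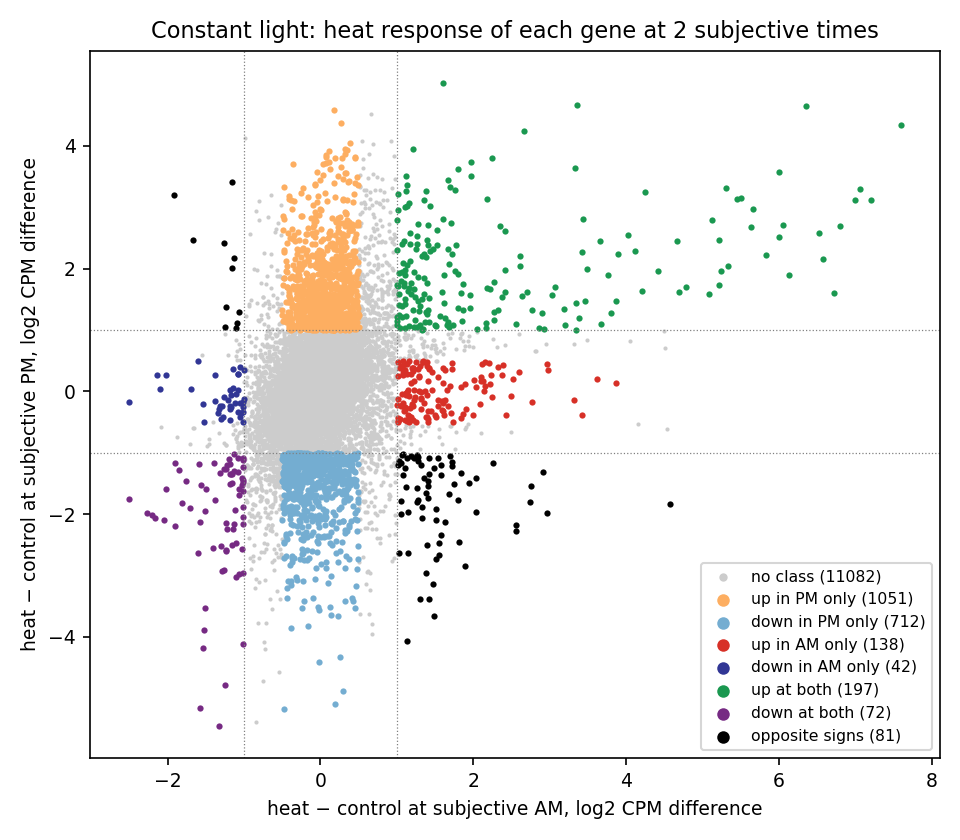
Each point is 1 of 13375 genes, plotted by its heat minus control difference in log2 CPM at subjective AM (x axis) and at subjective PM (y axis) in constant light, coloured by class, with dotted lines at a 2-fold difference. The 197 genes higher at both times fill the upper right, while the 1051 higher and 712 lower in PM only form the vertical band around an AM difference of 0.

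An 8-group fit, chosen after the data were seen, put each LL library in a group of its own and took the spread from the LD replicates alone. It called 103 genes higher (0.480%) and 2 lower (0.00931%) in LL heat AM against LL control AM, and 937 higher (4.36%) and 895 lower (4.17%) in LL heat PM against LL control PM. The 2 lower in AM were AT1G56020 (0.592 CPM in heat against 3.67 in control) and AT1G67690 (2.45 against 6.94). The heat effect itself differed between the subjective times in 125 genes, 43 with a higher value in PM (0.200%) and 82 with a lower value in PM (0.382%). With the replicate block this number was 1050, and without LD replicate 1, 3 or 4 it was 21, 29 or 5. Of the genes higher in PM only 34 were among those called for the difference, of those lower in PM only 31, of those higher in AM only 3 and of those higher in AM and lower in PM 13. Without the replicate block, therefore, the difference between the times did not pass for most genes of the classes at 1 time. Class counts with the block are not given, so this does not show that the responses were equal. Later statements on this test refer to the 8-group fit without the block.

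The LD libraries, which the classes did not use, were read for the same genes. In LD AM 913 genes rose (4.25% of 21474) and 1677 fell (7.81%), and in LD PM 1503 rose (7.00%) and 1977 fell (9.21%). Among the 13375 genes at the minimum level 5.39% rose in LD AM and 9.93% in LD PM. Of the 197 genes higher at both LL times 54.8% rose in LD AM and 66.5% in LD PM, and of the 138 higher in LL AM only 57.2% rose in LD AM and 43.5% in LD PM. Of the 1051 higher in LL PM only 1.81% rose in LD AM and 19.0% in LD PM. Genes lower at both LL times fell in LD AM in 26.4% of cases and in LD PM in 50.0%, against 4.34% and 5.36% of all genes at the minimum level. Of the 712 genes lower in LL PM only 12.4% fell in LD AM and 22.5% in LD PM.

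Of the 12 heat shock factors that reached 10 CPM, 4 were at least 2-fold higher at both times. HSFA2, a factor that amplifies and prolongs the heat response, was at 712 CPM in LL heat AM against 6.58 in LL control AM, and at 152 CPM in LL heat PM against 50.0 in LL control PM. Both heated libraries stood above both controls, and the control PM library above the control AM library. In the 20-library fit HSFA2 had a log2 fold change of 4.14 ± 1.27 (SE) and an adjusted p of 0.0934 (edgeR), and in the 8-group fit its AM pair was called (adjusted p = 0.0328) and its PM pair was not (0.390). HSFA7A, another class A factor, rose by 2.48 ± 0.45 (adjusted p = 0.0148, edgeR), with 138 CPM in LL heat AM against 12.4 in LL control AM and 74.4 in LL heat PM against 26.7 in LL control PM. HSFB2A and HSFB2B are class B factors, which repress transcription. HSFB2A was at 85.4 CPM in LL heat AM against 17.7 in LL control AM and at 82.1 in LL heat PM against 23.8 in LL control PM, and rose by 2.04 ± 0.27 (adjusted p = 0.00314, edgeR). HSFB2B was at 133 CPM in LL heat AM against 16.02 in LL control AM and at 86.0 in LL heat PM against 28.8 in LL control PM, and rose by 2.33 ± 0.34 (adjusted p = 0.00426, edgeR). These are the 3 named factors that rose, and HSFA7B, which stayed under 10 CPM, was the fourth, with 28 counts in LL heat AM against 0 in LL control AM, at least 15.5-fold higher at a floor of 3 counts per library.

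Not all factors followed this pattern. HSFA3, which acts late in the cascade, was at 10.7 CPM in LL heat AM against 7.40 in LL control AM and at 62.0 in LL heat PM against 9.18 in LL control PM, and only its PM pair was called in the 8-group fit (adjusted p = 0.0132). Its call in the 20-library fit depended on the block, with an adjusted p of 0.0958 without it and 0.0295 with it. HSFA4A, HSFA4C and HSFA8 were higher in PM only by fold, and HSFC1 was at 2.04 CPM in LL heat PM against 13.0 in LL control PM. Over the 12 factors the median log2 difference was 0.13 in AM and 1.26 in PM, beside −0.03 and 0.13 over all genes.

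Promoter sequences are shown for 3 heat genes whose windows hold 2 copies of the heat shock element each, to make visible where it lies. They are not typical, and the windows of HSFB2A and HSFB2B hold no copy. The 250 bases before the gene start were read from RefSeq's TAIR10.1 assembly and searched on both strands for GAANNTTC, a palindrome of 2 facing half-units, given here in capitals. HSP17.4 (AT3G46230) encodes a cytosolic small heat shock protein in 1 exon at chr3:16984118-16984867 on the minus strand, and its window is chr3:16984868-16985117. HSFA2 (AT2G26150) has 3 exons at chr2:11135624-11137792 on the plus strand, and its window is chr2:11135374-11135623. HSFA7A (AT3G51910) has 2 exons at chr3:19265141-19266806 on the plus strand, and its window is chr3:19264891-19265140.
HSP17.4: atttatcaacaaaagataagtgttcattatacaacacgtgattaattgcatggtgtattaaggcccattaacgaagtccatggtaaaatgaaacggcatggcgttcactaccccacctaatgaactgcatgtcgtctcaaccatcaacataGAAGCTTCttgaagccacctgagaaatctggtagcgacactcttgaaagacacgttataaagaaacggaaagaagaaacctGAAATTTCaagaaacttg
HSFA2: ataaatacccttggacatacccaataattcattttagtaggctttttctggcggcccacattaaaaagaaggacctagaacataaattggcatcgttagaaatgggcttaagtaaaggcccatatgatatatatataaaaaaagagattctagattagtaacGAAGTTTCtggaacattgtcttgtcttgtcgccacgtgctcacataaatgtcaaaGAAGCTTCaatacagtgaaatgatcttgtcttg
HSFA7A: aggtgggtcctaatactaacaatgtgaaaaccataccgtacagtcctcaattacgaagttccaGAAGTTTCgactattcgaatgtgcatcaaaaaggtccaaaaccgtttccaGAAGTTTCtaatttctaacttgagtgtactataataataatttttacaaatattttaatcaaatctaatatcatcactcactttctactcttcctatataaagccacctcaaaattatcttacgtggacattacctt
Counted from the motif base nearest to the gene, the copies lie 11 and 92 bases before the gene start in HSP17.4, 26 and 81 bases in HSFA2, and 130 and 180 bases in HSFA7A. The letters GAANNTTC were found in 9.55% of all 27443 windows of this length and in 14.1% of the 192 windows of genes higher at both times (27 windows). Windows with 2 or more copies made up 0.503% of all windows and 2.6% of those 192. At least 1 copy was in 12 of the 118 windows of genes higher in AM only and in 105 of the 1035 of genes higher in PM only. A match of letters is a description and not a binding site, and 7 of the 10 genes named as higher at both times have no match in this window (all but AT1G53540, HSP17.4 and BAG6).

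Small heat shock proteins gave the largest differences. Of 17 loci 16 reached 10 CPM, 13 were at least 2-fold higher at both times, and 11 rose, or 14 with the replicate block. Their median log2 difference was 6.02 in AM and 2.60 in PM, and 14 of 16 had the larger difference in AM. HSP17.4 was at 1305 CPM in LL heat AM against 6.58 in LL control AM and at 259 in LL heat PM against 12.6 in LL control PM, and rose by 5.997 ± 1.13 (adjusted p = 0.0163, edgeR). Both of its pairs were called in the 8-group fit (adjusted p = 0.0315 in AM and 0.0495 in PM), while the PM effect was lower than the AM effect by 3.29 with an adjusted p of 0.413. AT1G54050 was at 645 CPM in LL heat AM against 9.59 in LL control AM and at 132 in LL heat PM against 20.1 in LL control PM, and its PM effect was lower than its AM effect by 3.38 (adjusted p = 0.0514). No list member passed this test of the difference between the times. HSP17.6A, also cytosolic, was at 700 CPM in LL heat AM against 5.10 in LL control AM and at 181 in LL heat PM against 18.23 in LL control PM, and rose by 5.18 ± 1.12 (adjusted p = 0.0286, edgeR).

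Small heat shock proteins of organelles moved in the same direction. ATHSP22.0, of the endomembrane system, was at 15.8 CPM in LL heat AM against 0.102 in LL control AM and at 4.84 in LL heat PM against 0.270 in LL control PM, and rose by 5.75 ± 1.21 (adjusted p = 0.0237, edgeR). HSP23.6-MITO, of mitochondria, was at 170 CPM in LL heat AM against 1.63 in LL control AM and at 34.3 in LL heat PM against 7.56 in LL control PM, with an adjusted p of 0.103, or 0.0166 with the block. HSP21, the plastid member, had 94 counts in LL heat AM against 1 in LL control AM and 49 in LL heat PM against 0 in LL control PM, at least 30.8-fold higher in PM at a floor of 3 counts per library. AT2G19310, of the same protein superfamily, was higher in AM only, at 568 CPM in LL heat AM against 46.0 in LL control AM but 120 in LL heat PM against 104 in LL control PM. Its PM effect was smaller in LL than in LD by 2.79 ± 0.67 in the 8-group fit. On the scale of all 20 libraries, AT2G19310 was at 103 CPM in LL control PM against 26.3 to 51.0 in LD control PM. In heat PM it was at 119 CPM in LL against 274 to 371 in LD. AT4G21870 was the 1 member of the 16 below control in AM, at 167 CPM in LL heat AM against 208 in LL control AM and at 69.3 in LL heat PM against 67.8 in LL control PM (adjusted p = 0.937).

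Among the large chaperones, 6 of 24 were at least 2-fold higher at both times and 6 in AM only, and none in PM only. The median log2 difference was 1.92 in AM and 0.58 in PM. HSP101, the disaggregase needed for acquired thermotolerance, was at 927 CPM in LL heat AM against 16.1 in LL control AM and at 343 in LL heat PM against 73.3 in LL control PM, and rose by 4.04 ± 1.03 (adjusted p = 0.0493, edgeR). HSP90.1, the heat-inducible cytosolic HSP90, was at 2507 CPM in LL heat AM against 35.5 in LL control AM and at 785 in LL heat PM against 211 in LL control PM. HSP70 (AT3G12580), a heat-inducible cytosolic member, was at 3339 CPM in LL heat AM against 90.0 in LL control AM and at 1334 in LL heat PM against 402 in LL control PM. For both, the call depended on the block, with adjusted p of 0.103 and 0.116 without it and 0.0246 and 0.0188 with it. Hsp70b, HSP70T-2 and CLPB4, a mitochondrial disaggregase, also rose. In all, 4 of the 24 rose, or 9 with the block. Members higher in AM only included HSP90.2, at 1584 CPM in LL heat AM against 200.2 in LL control AM and 690 in LL heat PM against 545 in LL control PM, and MTHSC70-2, a mitochondrial HSP70, at 117 against 24.5 in AM and 49.2 against 52.5 in PM. On the scale of all 20 libraries, LL control PM held HSP90.2 at 539 CPM and MTHSC70-2 at 52.0. The LD control PM libraries held 160 to 301 and 16.1 to 37.7 CPM. Neither passed the test of the difference between the times (adjusted p = 0.341 and 0.476).

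Co-chaperones and genes of heat memory resembled the small heat shock proteins in their direction. Of 15 at 10 CPM or more, 9 were at least 2-fold higher at both times, and 6 rose, or 11 with the block. BAG6, a calmodulin-binding co-chaperone, was at 323 CPM in LL heat AM against 7.24 in LL control AM and at 134 in LL heat PM against 15.1 in LL control PM, and rose by 4.32 ± 0.67 (adjusted p = 0.00592, edgeR). MBF1C, a transcriptional coactivator required for basal thermotolerance, was at 809 CPM in LL heat AM against 15.8 in LL control AM and at 405 in LL heat PM against 51.4 in LL control PM, and rose by 4.33 ± 0.75 (adjusted p = 0.0118, edgeR). HSA32, which sustains acquired thermotolerance, was at 158 CPM in LL heat AM against 6.07 in LL control AM and at 44.5 in LL heat PM against 7.97 in LL control PM, and rose by 3.61 ± 0.61 (adjusted p = 0.00957, edgeR). In each of these 3 genes both heated libraries lay above both controls. ROF2, an immunophilin that works with HSP90, was at 2087 CPM in LL heat AM against 22.6 in LL control AM and at 335 in LL heat PM against 56.1 in LL control PM, and rose by 4.56 ± 1.12 (adjusted p = 0.0433, edgeR). HOP3 and J2 rose too, both being partners of HSP70. DREB2A, a transcription factor of heat and drought, was at least 2-fold higher at both times, with an adjusted p of 0.0912, or 0.0127 with the block.

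Folding genes of the ER split by time. Of 18, all had a positive AM difference, with a median of 0.90 on the log2 scale, whereas 9 had a positive PM difference and the PM median was −0.04. The 6 members higher in AM only were BIP1 and BIP2, the ER HSP70s, CNX1, PDI10, SDF2 and ERDJ3B. BIP2 was at 328 CPM in LL heat AM against 120 in LL control AM and at 103 in LL heat PM against 128 in LL control PM, and its PM effect was lower than its AM effect by 1.79 (adjusted p = 0.399). None of the 18 passed the test of the difference between the times. In LD 12 of the list rose in AM and 3 in PM. ERDJ3A, an ER co-chaperone, was an exception, at 88.7 CPM in LL heat AM against 2.09 in LL control AM and at 46.4 in LL heat PM against 4.52 in LL control PM, and rose by 4.37 ± 0.87 (adjusted p = 0.0203, edgeR). The membrane-bound sensor BZIP28 rose as well, by 1.44 ± 0.33 (adjusted p = 0.0344, edgeR). BZIP60, the other ER stress factor, was higher in PM only, at 115 CPM in LL heat PM against 39.8 in LL control PM (adjusted p = 0.0113 for the PM pair, 8-group fit).

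**Figure D2:**
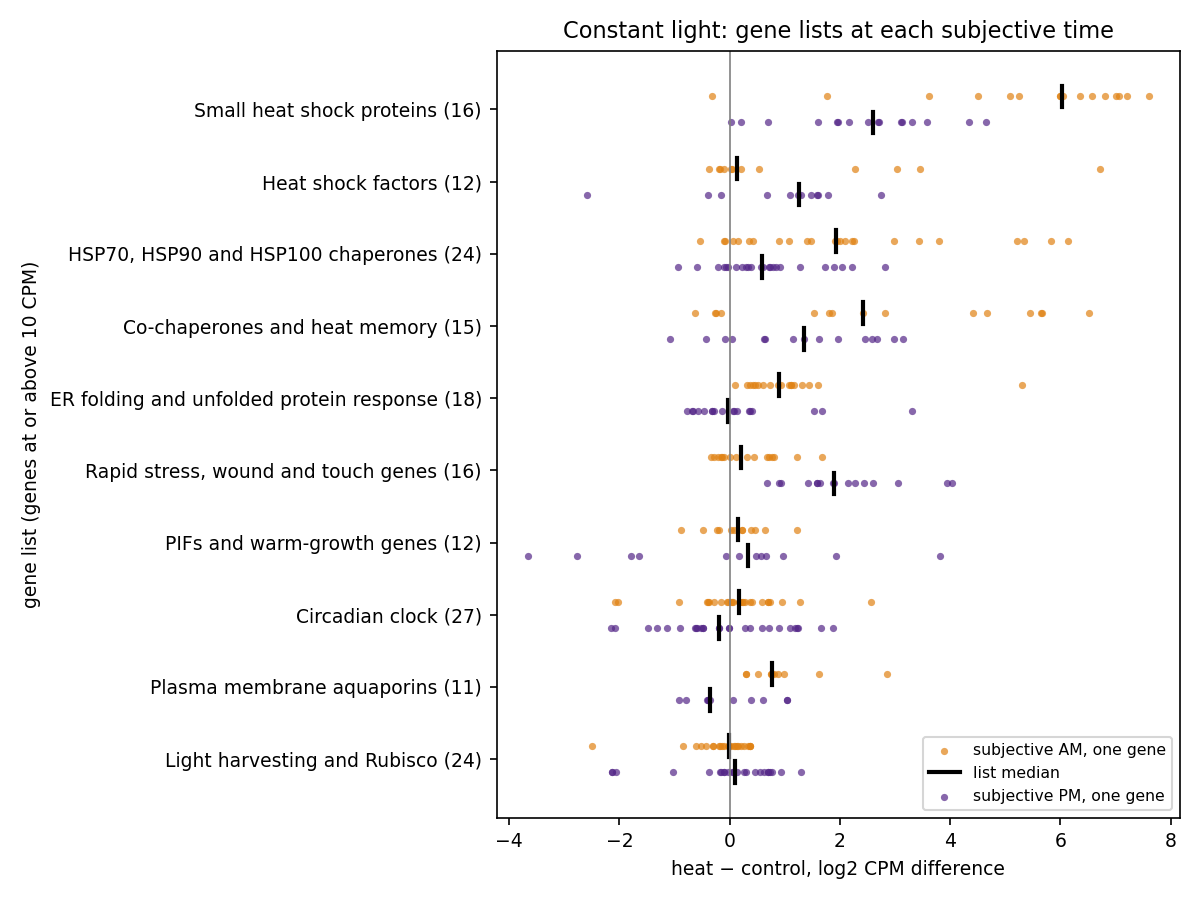
Each point is 1 gene of a list with at least 10 CPM in at least 1 constant light library, plotted by its heat minus control difference in log2 CPM, with AM in the upper and PM in the lower row of each list, and a black bar marks the list median. The bars of the small heat shock proteins lie at 6.02 in AM and 2.60 in PM, those of the rapid stress genes at 0.21 and 1.88, and those of the clock genes near 0.

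The 10 genes with the largest difference at whichever time was smaller included 4 outside these lists. AT5G10695, annotated as a methionyl-tRNA synthetase, was at 97.1 CPM in LL heat AM against 9.34 in LL control AM and at 216 in LL heat PM against 8.37 in LL control PM, and rose by 4.04 ± 0.59 (adjusted p = 0.00426, edgeR). AT5G25450, annotated as the 14 kDa subunit of a cytochrome bd ubiquinol oxidase, was at 195 CPM in LL heat AM against 4.13 in LL control AM and at 65.6 in LL heat PM against 7.22 in LL control PM, and rose by 4.38 ± 0.57 (adjusted p = 0.00264, edgeR). AT1G21550, a calcium-binding EF-hand protein, was at 29.0 CPM in LL heat AM against 2.76 in LL control AM and at 66.6 in LL heat PM against 5.20 in LL control PM, and rose by 3.55 ± 0.83 (adjusted p = 0.0358, edgeR). AT1G03070, of the Bax inhibitor family, rose by 4.08 ± 0.83 (adjusted p = 0.0213, edgeR), with 11.3 CPM in LL heat AM against 0.459 in LL control AM and 7.64 in LL heat PM against 0.675 in LL control PM. For all 4, the heated libraries were above the controls at both times, and each gene also rose in LD AM and in LD PM. AT5G10695 and AT1G21550 had the larger difference in PM, unlike the small heat shock proteins. The small heat shock protein AT1G53540 headed the 10, at 283 CPM in LL heat AM against 3.32 in LL control AM and at 119 in LL heat PM against 4.59 in LL control PM. It rose by 5.57 ± 1.29 (adjusted p = 0.0356, edgeR).

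Genes lower at both times were fewer and moved less. AT2G36970, a UDP-glycosyltransferase, was at 7.02 CPM in LL heat AM against 32.0 in LL control AM and at 7.26 in LL heat PM against 30.9 in LL control PM, and fell by 2.13 ± 0.33 (adjusted p = 0.00560, edgeR). OCT5, an organic cation and carnitine transporter, was at 12.4 CPM in LL heat AM against 51.8 in LL control AM and at 15.0 in LL heat PM against 64.5 in LL control PM, and fell by 2.07 ± 0.48 (adjusted p = 0.0364, edgeR). In both genes the 2 differences were nearly equal. The histone gene AT5G10390, the pectin methylesterase inhibitor gene AT5G62360, AT5G14730 and GSTU2, a glutathione S-transferase, fell too, by 1.81 to 2.18. Of the 10 named by the same rule, AT1G10585 (a bHLH protein), CRK30 (a receptor-like kinase), CP1 (AT5G49480, a calcium-binding protein) and PDF1.2c (a plant defensin) did not pass, with adjusted p of 0.0735 to 0.396 (edgeR). CP1 was at 84.7 CPM in LL heat AM against 278 in LL control AM and at 65.1 in LL heat PM against 245 in LL control PM, and passed with the block (adjusted p = 0.00938). In LD AM and LD PM its log2 fold changes were −0.10 and −0.40, and neither passed. On the scale of all 20 libraries, CP1 was at 242 CPM in LL control PM against 14.9 to 22.8 in the 4 LD control PM libraries. Of the 10 named genes, all but AT5G10390 and CRK30 lay above all 4 LD control PM libraries in LL control PM. The letters of the evening element, AAATATCT, a clock-related motif, stood in 15.3% of the 72 windows of genes lower at both times (11 windows), against 4.79% of all windows.

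Several genes responded by fold at AM alone. The 5 with the largest difference between the times were SUS4, a sucrose synthase, AT4G39675, AT1G66080, AT2G19310 and AT5G03285. AT1G66080, annotated as hikeshi-like after a carrier that moves HSP70 into the nucleus in animals, was at 54.9 CPM in LL heat AM against 5.36 in LL control AM and at 11.1 in LL heat PM against 12.2 in LL control PM. AT5G03285 was at 26.9 CPM in LL heat AM against 3.83 in LL control AM and at 3.82 in LL heat PM against 4.32 in LL control PM, and was the only 1 of the 5 to pass the test of the difference between the times (PM lower than AM by 3.01, adjusted p = 0.0468). AT1G66080 rose in LD by 3.13 in AM and 3.42 in PM, and AT5G03285 by 2.90 in AM and 2.70 in PM. On the scale of all 20 libraries, LL control PM held AT1G66080 at 12.1 CPM and AT5G03285 at 4.27. The 4 LD control PM libraries held 2.52 to 3.40 and 1.14 to 2.05 CPM. SUS4 in LL control PM was below the LD control PM range and AT4G39675 within it. GOLS1 lay just under the fold limit in PM. This gene, which makes galactinol for raffinose sugars, was at 452 CPM in LL heat AM against 19.9 in LL control AM and at 126 in LL heat PM against 63.5 in LL control PM, a PM effect lower by 3.53 (adjusted p = 0.0585). Among genes lower in AM only were PYL6, an abscisic acid receptor, ELIP2, a chlorophyll-binding stress protein, AT4G34950, MAPKKK13 and the clock gene PRR5. PRR5 was at 5.33 CPM in LL heat AM against 22.1 in LL control AM and at 31.5 in LL heat PM against 26.0 in LL control PM. On the scale of all 20 libraries, LL control AM lay above all 4 LD control AM libraries for PRR5, PYL6 and AT4G34950. It lay below them for ELIP2 and within their range for MAPKKK13. None of these 5 passed for the AM pair (adjusted p = 0.317 to 0.835) or for the difference between the times.

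Higher in PM only was the largest class (7.86% of all 13375 genes), and it held 9 of the 16 rapid stress, wound and touch genes at 10 CPM or more. This list holds early transcription factors and calmodulin-like genes that respond within minutes to touch, wounding and other stresses, and the handling of plants can induce it. None of the 16 was higher in AM only, a class of 1.03% of all genes, so this count does not set the list apart. The median log2 difference of the 16 was 0.21 in AM and 1.88 in PM. TCH3, a calmodulin-like touch gene, was at 231 CPM in LL heat AM against 144 in LL control AM and at 2349 in LL heat PM against 143 in LL control PM. The 1 library LL heat PM thus stood far above the other 3, and the PM pair was called (adjusted p = 0.0359) while the PM minus AM difference of 3.33 was not (0.311). WRKY33, a regulator of defence against fungi, was at 39.9 CPM in LL heat AM against 23.3 in LL control AM and at 258 in LL heat PM against 31.1 in LL control PM (adjusted p = 0.0190 for the PM pair). TCH3 and WRKY33 differed by over 0.5 in AM too and so fell in no class. ERF6, an ethylene response factor, was higher at both times, at 12.3 CPM in LL heat AM against 5.20 in LL control AM and at 155 in LL heat PM against 9.92 in LL control PM, and rose by 2.66 ± 0.68 (adjusted p = 0.0493, edgeR). It was the only member of the list to rise. In all, 7 of the list were called for the PM pair, 0 for the AM pair and 0 for the difference between the times, and in LD 0 rose and 5 fell in AM, and 1 rose and 1 fell in PM. Of all 21474 genes tested, 4.25% rose and 7.81% fell in LD AM, and 7.00% rose and 9.21% fell in LD PM, so the LD PM counts do not set this list apart. The smaller set of defence genes under salicylic acid had 2 of 5 higher in PM only, CBP60G and NPR1. None of the list was called without the block, and with it PAD4, a lipase-like regulator of defence, rose (adjusted p = 0.0346).

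The 5 genes with the largest difference in this class were FRB1, an O-fucosyltransferase, AT1G07135, AT1G19380, BPS3 and CMPG1. FRB1 was at 10.7 CPM in LL heat AM against 9.44 in LL control AM and at 103 in LL heat PM against 4.12 in LL control PM, with an adjusted p of 0.00443 for the PM pair and 0.0685 for the difference between the times. CMPG1, a ubiquitin ligase induced by pathogen signals, was at 18.9 CPM in LL heat AM against 17.5 in LL control AM and at 138 in LL heat PM against 9.05 in LL control PM (adjusted p = 0.00980 for the PM pair). AT1G07135 was at 357 CPM in LL heat PM, against 17.1 in LL control PM, 28.9 in LL heat AM and 23.9 in LL control AM. AT1G07135 and AT1G19380 also passed for the PM pair (adjusted p = 0.0242 and 0.0154), and BPS3 did not (0.358), with 80 counts in LL heat PM against 13 in LL control PM. BPS3 stayed in the class under 5 of 9 alternatives. In FRB1, CMPG1 and AT1G07135 the LL heat PM library alone was high, and none of the 5 rose in LD AM or LD PM.

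The letters CGCGTT, the core of the rapid stress response element that early stress genes share, were searched after the class had been seen. They stood in 7.34% of the 1035 windows of genes higher in PM only (76 windows), against 2.59% of all windows, 4.69% of windows of genes higher at both times and 0.847% of those higher in AM only. The windows of CMPG1 (AT1G66160), which has 1 exon at chr1:24637196-24638608 on the plus strand, and of AT5G25450, which has 4 exons at chr5:8856917-8858476 on the plus strand, show 1 copy and a cluster, with the letters in capitals on either strand. The first window is chr1:24636946-24637195 and the second chr5:8856667-8856916.
CMPG1: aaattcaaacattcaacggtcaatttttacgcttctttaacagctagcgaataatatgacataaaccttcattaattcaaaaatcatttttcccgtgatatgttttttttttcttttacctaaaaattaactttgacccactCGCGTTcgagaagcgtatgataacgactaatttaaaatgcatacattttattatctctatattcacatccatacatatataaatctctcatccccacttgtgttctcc
AT5G25450: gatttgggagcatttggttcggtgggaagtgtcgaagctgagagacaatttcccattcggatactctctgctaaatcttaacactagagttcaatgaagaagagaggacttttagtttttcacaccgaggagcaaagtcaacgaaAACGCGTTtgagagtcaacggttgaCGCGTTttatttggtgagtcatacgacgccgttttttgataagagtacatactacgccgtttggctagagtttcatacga
Counted in the same way, the copy in CMPG1 lies 103 bases before the gene start, and those in AT5G25450 lie at 100, 98 and 75 bases. The copies at 100 and 98 bases overlap on opposite strands. TCH2, a calmodulin-like gene of the touch list, held 4 matches, in overlapping pairs on opposite strands, at 79, 77, 60 and 58 bases.

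Of the 712 genes lower in PM only, the 5 with the largest difference were HPL1, a hydroperoxide lyase, GSTF14, MYB29, LSU2 and AT4G38860. MYB29, a regulator of aliphatic glucosinolate synthesis, was at 16.6 CPM in LL heat AM against 23.2 in LL control AM and at 0.510 in LL heat PM against 23.8 in LL control PM (adjusted p = 0.0154 for the PM pair). LSU2, induced when sulfur is low, was at 15.73 CPM in LL heat AM against 13.2 in LL control AM and at 1.15 in LL heat PM against 25.8 in LL control PM (adjusted p = 0.0243). AT4G38860, of the SAUR family of auxin-responsive growth genes, was at 70.6 CPM in LL heat AM against 71.7 in LL control AM and at 1.401 in LL heat PM against 32.7 in LL control PM (adjusted p = 0.00417). In all 3 the LL heat PM library alone was low, all 5 were called for the PM pair, and none of the 5 passed for the difference between the times (adjusted p = 0.0558 to 0.186). In LD PM none of the 5 passed, and in LD AM GSTF14, a glutathione S-transferase, fell by 3.11 (adjusted p = 0.00927). In LD control PM, MYB29, LSU2 and AT4G38860 averaged only 1.19, 3.34 and 7.23 CPM on the scale of all 20 libraries. Their LL control PM levels were higher by 4.34, 2.94 and 2.17 on the log2 scale. HPL1 and GSTF14 averaged 8.86 and 12.4 CPM in LD control PM. Whether the control level bears on the lack of a called fall in LD PM was not tested.

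Over 24 genes of light harvesting and Rubisco the median log2 difference was −0.02 in AM and 0.10 in PM. At least 2-fold differences were seen in 1 gene in AM, ELIP2 (lower), and in 5 in PM: LHCB1.1 was higher, and LHCB4.3, ELIP1, RBCS1B and RBCS2B were lower. Of all 13375 genes at the minimum level, 3.89% were at least 2-fold higher and 1.27% lower in AM. In PM these shares were 11.9% and 9.20%, so the count alone does not set this list apart from other genes. LHCB1.1, a light-harvesting protein of photosystem II, was at 626 CPM in LL heat PM against 256 in LL control PM, and its PM pair did not pass (adjusted p = 0.605). RBCS1B and RBCS2B encode small subunits of Rubisco. RBCS1B was at 1053 CPM in LL heat AM against 1505 in LL control AM and at 412 in LL heat PM against 1729 in LL control PM, and fell by 1.28 ± 0.30 (adjusted p = 0.0366, edgeR). RBCS2B was at 2730 CPM in LL heat AM against 2783 in LL control AM and at 1024 in LL heat PM against 4520 in LL control PM (adjusted p = 0.00433 for the PM pair). The LL PM effect was lower than the LD PM effect by 2.09 ± 0.35 for RBCS1B (adjusted p = 0.00625) and by 2.34 ± 0.43 for RBCS2B (adjusted p = 0.0105). These neighbouring genes on chromosome 5 are near-identical copies, so reads may have been split between them. GLK1, a factor that drives chloroplast genes, was at 11.2 CPM in LL heat PM against 72.6 in LL control PM (adjusted p = 0.00230 for the PM pair). Plasma membrane aquaporins, which carry water into cells, had all 11 members above 0 in AM and 5 of 11 in PM, with medians of 0.76 and −0.35. PIP2-3 was at 180 CPM in LL heat AM against 24.6 in LL control AM and at 99.5 in LL heat PM against 48.6 in LL control PM, and rose by 1.96 ± 0.46 (adjusted p = 0.0366, edgeR). Its near-identical neighbour PIP2-2 was higher in AM only.

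Few genes moved in opposite directions. Of the 70 higher in AM and lower in PM, 32.9% fell in LD AM and 28.6% fell in LD PM. AT1G60590, a pectin lyase-like gene, was at 38.2 CPM in LL heat AM against 17.3 in LL control AM and at 1.53 in LL heat PM against 27.9 in LL control PM, and its PM effect was lower than its AM effect by 5.35 ± 0.76 (adjusted p = 0.0101, edgeR 8-group fit). EDA4, a lipid-transfer protein gene, was at 16.3 CPM in LL heat AM against 2.65 in LL control AM and at 2.80 in LL heat PM against 14.2 in LL control PM, with a difference of −4.98 ± 0.94 (adjusted p = 0.0294, edgeR 8-group fit). These were the only 2 of the 5 named to pass, and GOLS2, a relative of GOLS1, FTM1, a desaturase, and IMS2, an enzyme of glucosinolate side chains, did not (adjusted p = 0.0629 to 0.337). The root gene PYK10 also had opposite signs, at 2059 CPM in LL heat AM against 943 in LL control AM and at 663 in LL heat PM against 1957 in LL control PM, and its PM effect was lower by 2.71 (adjusted p = 0.0345, edgeR). Whether tissue collected differed between these libraries was not tested. Each AM difference rests on 1 LL heat AM and 1 LL control AM library. On the scale of all 20 libraries, LL control AM held EDA4 at 2.64 CPM, AT1G60590 at 17.2 and PYK10 at 940. The 4 LD control AM libraries held 12.1 to 22.9, 119 to 127 and 2029 to 2643 CPM. In LL heat AM, AT1G60590 was also below LD heat AM, at 38.6 CPM against 134 to 191. EDA4 and PYK10 were above it, at 16.5 CPM against 7.22 to 13.3 and at 2084 against 1056 to 1407. FTM1, IMS2 and GOLS2 in LL control AM also lay below all 4 LD control AM libraries, FTM1 only just (0.712 CPM against 0.784 in the lowest). The part of the control level in these differences was not tested. None of the 5 named of the 11 genes lower in AM and higher in PM passed (NRT2.6, a nitrate transporter, AT4G36820, PCK2, RHA3B and AT1G22570), and 4 of them were under 1 CPM in LL heat AM.

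Clock genes had no common direction. Over 27 genes the median log2 difference was 0.17 in AM and −0.19 in PM, 2 rose and none fell, or 3 rose and 1 fell with the block. RVE4, a MYB factor, rose with the block only (adjusted p = 0.0417), and GRP8, an RNA-binding protein under clock control, fell with the block only (adjusted p = 0.0256). RVE7, a MYB factor related to CCA1, was at 212 CPM in LL heat AM against 35.9 in LL control AM and at 83.1 in LL heat PM against 38.6 in LL control PM, and rose by 1.85 ± 0.40 (adjusted p = 0.0280, edgeR). BOA, a relative of LUX, was at 7.02 CPM in LL heat AM against 2.81 in LL control AM and at 80.9 in LL heat PM against 22.01 in LL control PM, and rose by 1.64 ± 0.32 (adjusted p = 0.0185, edgeR). The morning genes CCA1 and LHY were lower in PM than in AM. LHY was at 172 CPM in LL heat AM against 225 in LL control AM and at 7.77 in LL heat PM against 35.1 in LL control PM (adjusted p = 0.0218 for the PM pair). CCA1 was at 19.0 CPM in LL heat PM against 41.7 in LL control PM, and the evening gene TOC1 at 348 CPM in LL heat PM against 150 in LL control PM, and neither PM pair passed (adjusted p = 0.0935 and 0.107).

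Heat effects that differed from those in LD were found mainly at PM. The LL and LD heat effects differed at AM in 1 gene (0.00466%), RBOHB, an NADPH oxidase, at 6.68 CPM in LL heat AM against 0.714 in LL control AM, or in 183 genes with the block. At PM they differed in 442 genes (2.06%), 181 with a higher and 261 with a lower value in LL, or in 1366 with the block and in 177, 236 or 100 without LD replicate 1, 2 or 4. RVE7 was at 82.2 CPM in LL heat PM against 38.2 in LL control PM on the scale of all 20 libraries, and at 167 ± 29.9 CPM in LD heat PM against 3.48 ± 0.89 in LD control PM (SD, n = 4 each). Its LL PM effect was lower than its LD PM effect by 4.48 ± 0.59 (adjusted p = 0.00115, edgeR 8-group fit). LNK1, a morning coactivator, was at 19.4 CPM in LL heat PM against 27.3 in LL control PM, and at 14.0 ± 4.18 CPM in LD heat PM against 1.27 ± 0.43 in LD control PM, an LL effect lower by 3.97 ± 0.56 (adjusted p = 0.00184, edgeR). The heated levels were close while the control levels were not. RVE1, an auxin-related MYB factor of the same family, also differed (lower by 2.30, adjusted p = 0.0449), and GI, an evening gene, had a difference of −3.45 with an adjusted p of 0.0508.

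The phytochrome interacting factors (PIFs) drive elongation in warmth, with PIF4 at the centre of that response. PIF5 was at 182 CPM in LL heat AM against 178 in LL control AM and at 149 in LL heat PM against 39.0 in LL control PM. Its PM pair was called (adjusted p = 0.00341), and the PM minus AM difference was 1.88 ± 0.46 (adjusted p = 0.0681, edgeR 8-group fit). In LD it was at 67.9 ± 9.58 CPM in heat PM against 7.18 ± 1.52 in control PM (SD, n = 4 each). PIF4 was at 122 CPM in LL heat AM against 52.6 in LL control AM and at 21.5 in LL heat PM against 13.5 in LL control PM, and its LL PM effect was lower than its LD PM effect by 2.18 ± 0.40 (adjusted p = 0.0112, edgeR). PIF1, which represses germination and greening, was at 46.8 CPM in LL heat AM against 30.0 in LL control AM and at 6.12 in LL heat PM against 19.4 in LL control PM. It passed for the PM pair (adjusted p = 0.00577), for PM minus AM (−2.33, adjusted p = 0.0266) and for LL PM minus LD PM (−2.64, adjusted p = 0.00129). The cell wall genes of the list parted, with XTH22, a touch-induced enzyme, at 2663 CPM in LL heat PM against 188 in LL control PM, and EXPA1, an expansin, at 25.6 against 174 (adjusted p = 0.0766 and 0.0125 for the PM pairs).

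**Figure D3:**
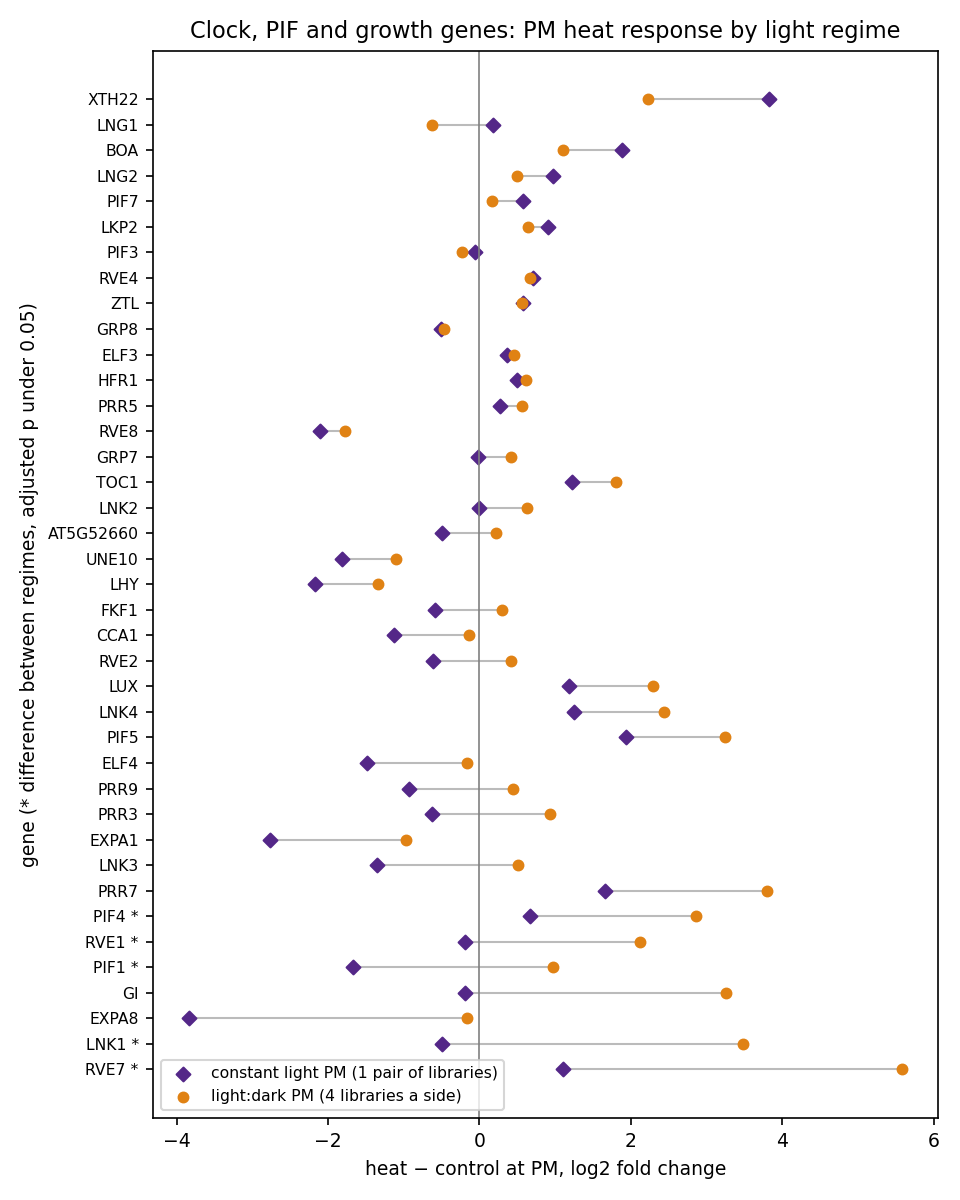
Each row is 1 clock, PIF or growth gene at 10 CPM or more, with the heat against control log2 fold change at PM in constant light (diamonds, 1 pair of libraries) and in light:dark cycles (circles, 4 libraries a side), ordered by the difference between them. Genes marked with a star (RVE7, LNK1, PIF1, RVE1 and PIF4) passed the test of that difference at an adjusted p under 0.05, and in all 5 the constant light value is the lower.

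Control levels at PM were compared as well, because a fold change rests on them. LL control PM was higher than LD control PM in 907 genes (4.22%) and lower in 152 (0.708%), and with the block 2820 genes differed. Of 27 clock genes 16 were higher and none lower. STO, a B-box light signalling factor, was at 132 CPM in LL control PM against 5.44 to 9.77 in the 4 LD control PM libraries, and HSP101 at 72.5 against 8.38 to 14.0. For HSFA2 the values were 49.4 against 1.73 to 5.44 CPM. The control difference passed for HSFA2 (3.69 ± 0.74, adjusted p = 0.00657), HSP101 (2.67 ± 0.72, adjusted p = 0.0429), HSFB2B, HSFB2A and MBF1C, and did not for HSP90.1 (2.94 ± 0.86, adjusted p = 0.0642) or HSP17.4 (−1.08 ± 0.99, adjusted p = 0.657). The LL control PM library rests on 1 sample, so its own error could not be measured.

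Averaged over AM and PM, the LL and LD heat effects differed in 7 genes (0.0326%), or in 132 with the block, 5 with a higher and 2 with a lower value in LL. KT1 (AT2G26650), a potassium channel subunit, was at 21.0 CPM in LL heat AM against 13.3 in LL control AM and at 51.1 in LL heat PM against 26.8 in LL control PM, and rose by 0.81 ± 0.19 (adjusted p = 0.0384, edgeR). In LD it fell by 0.97 in AM and 0.59 in PM, and the difference was 1.59 ± 0.22 (adjusted p = 0.0179). The direction thus differed between the regimes, with heat above control in both LL pairs and the AM pair alone not passing (adjusted p = 0.569, against 0.0443 for the PM pair). HHP2, a heptahelical membrane protein related to adiponectin receptors, was at 11.0 CPM in LL heat AM against 5.87 in LL control AM and at 42.3 in LL heat PM against 13.2 in LL control PM, and differed by 2.19 ± 0.31 (adjusted p = 0.0179). The kinase gene AT5G66790 (2.23 ± 0.37), the phospholipase gene PLA-I{gamma}1 (1.59 ± 0.26) and AT5G12880 (2.58, at 0.743 to 2.68 CPM) were the others with a higher value in LL, each with an adjusted p of 0.0392. STO (−1.90 ± 0.29, adjusted p = 0.0277) and CYP71B34, a cytochrome P450 (−1.11 ± 0.18, adjusted p = 0.0392), had a lower value in LL. For STO the LL minus LD heat effect was −3.64 at PM and −0.17 at AM in the 8-group fit. In heat PM STO was at 67.9 CPM in LL against 47.1 to 57.4 in LD, and the control PM levels lay further apart. CEJ1, an ethylene and jasmonate response factor, CDF3, a repressor of flowering, Mfl1 and CXIP1 came next by p and did not pass (adjusted p = 0.0536 to 0.0677). When any 1 LD replicate number was left out, none of the 7 genes passed.

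**Figure D4:**
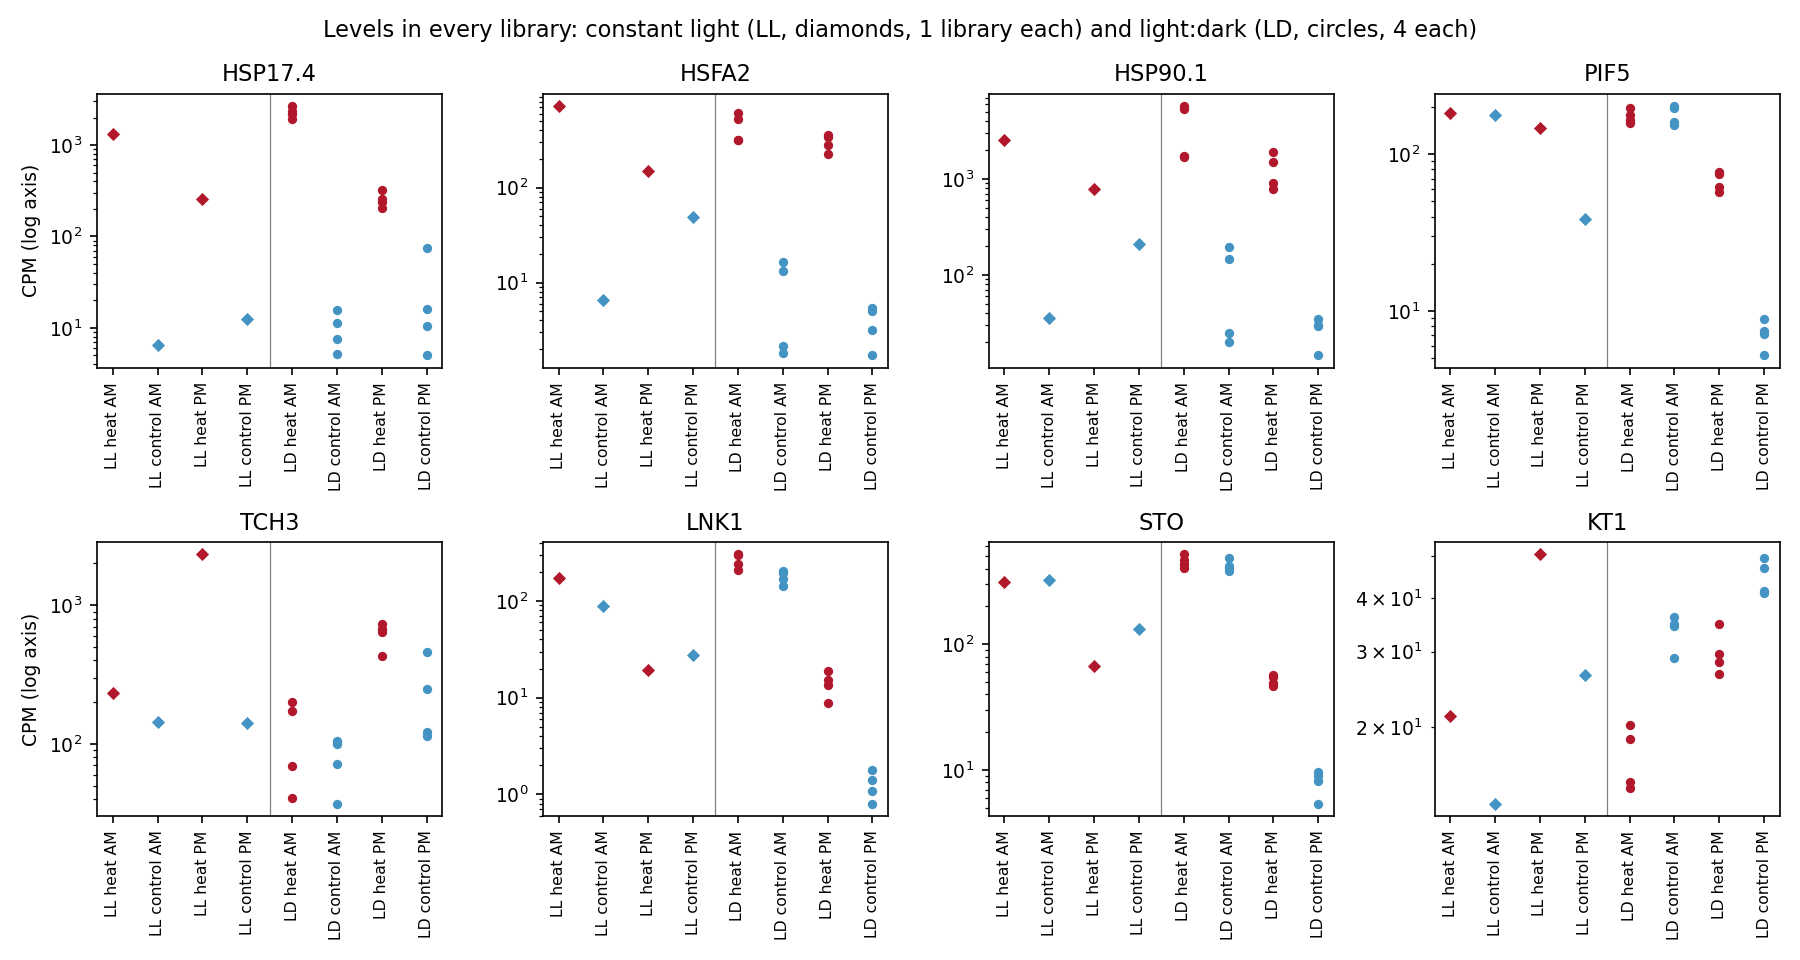
Levels of 8 genes in CPM on a log axis in every library, with heat in red and control in blue, constant light (LL) as single diamonds on the left and light:dark cycles (LD) as 4 circles per group on the right of each panel. HSP17.4 is higher in heat in all pairs, TCH3 is highest in the single LL heat PM library, and LNK1 and STO in LL control PM lie far above all 4 LD control PM libraries.

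Cold and dehydration genes were read as a further list of stress markers. Of 13 at 10 CPM or more the median log2 difference was −0.25 in AM and 0.02 in PM, and GOLS1 was the only 1 to rise (2.75 ± 0.68, adjusted p = 0.0433, edgeR). ERD14, a dehydrin, was at 197 CPM in LL heat AM against 142 in LL control AM and at 649 in LL heat PM against 195 in LL control PM (adjusted p = 0.0197 for the PM pair).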

How the data were processed

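Poly(A) RNA from aerial tissue was sequenced from directional libraries, 1 library per LL condition and 4 per LD group. The deposited counts are whole reads per gene, which the authors made with TopHat2 2.1.0 and HTSeq 0.6.0 on TAIR10. Files held 33601 loci, of which 32835 matched RefSeq symbols.

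From these counts, edgeR 4.0.16 in R 4.3.3 was run with TMM scaling, quasi-likelihood tests and Benjamini-Hochberg adjustment, keeping each gene that reached 10 counts in 1 or more libraries of the fit. DESeq2 1.42.0 was an alternative. The 4-library fit had subjective time as a block, and the 20-library fit added the LD libraries. The 8-group fit was added after the data were seen. In both, a lone LL library is assumed to vary like the LD replicates. CPM used TMM scaling, and log2 CPM differences a prior count of 2. Levels set beside LD values use the scale of all 20 libraries. Nothing used here states that replicates came from separate plantings, so p-values measure the spread between these libraries.

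LD replicate numbers were taken from the labels. Same-numbered LD libraries deviated together (mean r = 0.504, lowest 0.113, 24 pairs), against −0.168 for different numbers, so the numbers pair them, and LL libraries had no pairing.

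Members and gene lists were chosen with earlier results of these data known. Named at both times are the 10 genes per direction with the largest smaller difference, since the 4-library fit called none. They were taken from the classes at both times, with at least 10 CPM in at least 1 LL library. The 5 genes with the largest difference between times are named per class at 1 time. The 5 per direction by p, at a mean of at least 5 CPM over the LL libraries, are named for LL against LD. List members are named where the account turns on them. Other genes were chosen after their values were seen. Promoter windows of 250 bases came from RefSeq TAIR10.1, while the counts were made on TAIR10, so no coordinate was mixed. The total per library limits low genes: 1 count is a large step there.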

Additional observations from a re-analysis of the deposited data

Results flagged for a closer look

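The total counts of the 4 LD heat PM libraries held 1 library far from the others, with a gap of 0.835 of the group's range, a size that chance reaches in a small share of groups.

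The LL heat effect differed from the LD effect, by an edgeR test of the difference in the 20-library fit, in KT1 (1.59 on the log2 scale), HHP2 (2.19), AT5G66790 (2.23), PLA-I{gamma}1 (1.59), STO (−1.90) and CYP71B34 (−1.11). None of these passed when any 1 LD replicate number was left out.

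Opposite directions at the 2 subjective times were seen in 10 named genes, each resting on 1 library per condition. The AM minus PM difference of the log2 differences was 6.403 for FTM1, 5.20 for AT1G60590, 5.15 for IMS2, 4.95 for GOLS2 and 4.84 for EDA4. It was −5.12 for NRT2.6, −4.57 for AT4G36820, −4.13 for PCK2, −3.68 for RHA3B and −3.31 for AT1G22570. The 8-group edgeR test of the difference between the times passed for AT1G60590 (adjusted p = 0.0101) and EDA4 (adjusted p = 0.0294) and for none of the other 8.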

How the results depend on the processing

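The 4-library comparison called 0 genes, against 29 with no filter on low counts, 175 with DESeq2, 469 in the 20-library fit and 1480 there with the replicate block. Leaving out 1 library or LD replicate number gave 36 to 1836 calls, the highest without LL heat AM, where only the PM pair remains. With looser fold limits (at least 1.5-fold at a responding time) there were 592 genes higher and 480 lower at both times, 232 lower in AM only, 1665 higher in PM only, 231 higher in AM and lower in PM, and 94 the other way. With stricter limits (at least 1.5 on the log2 scale) these were 80, 17, 8, 482, 19 and 2, with 54 higher in AM only and 292 lower in PM only. With upper-quartile scaling 699 were higher and 1100 lower in PM only. At a minimum of 5 CPM, 115 were lower at both times, 72 lower in AM only, 106 higher in AM and lower in PM, and 17 the other way. At 20 CPM, 419 were lower in PM only, 33 higher in AM and lower in PM, and 6 the other way. The LL against LD difference was called in 217 genes by DESeq2 and 132 with the replicate block, and in 0 to 901 with 1 library or LD number left out. LD AM calls ranged over 751 to 1503 and LD PM calls over 629 to 3451 with 1 number left out. In the 8-group fit the replicate block gave 1050 calls for PM minus AM, 183 for LL AM minus LD AM, 1366 for LL PM minus LD PM and 2820 for the PM controls, and leaving out 1 number gave 5 to 156, 0 to 3, 100 to 348 and 538 to 1025. The causes were not tested. The 31 named genes whose call in the 4-library fit was followed kept their sign in all settings run. All of them had the same sign in both LL pairs to begin with, and those named at both times were chosen for it. A kept sign is therefore not an independent check of these genes. Depth limits genes with few counts in LL heat PM, the smallest library, and with 1 library per LL condition no LL spread at a given time can be measured.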
